A study of Mus musculus with 2 samples.

Results

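The miRNAs described here are processed from hairpins that lie together within Clcn5 on the mouse X chromosome. They were chosen by name, as every array entry for miR-188, miR-362, miR-500, miR-501, miR-502, miR-532 or miR-660, which gave 9 of the 831 entries. These were both arms of miR-188, miR-362, miR-500 and miR-532, and miR-501-5p; the mouse prefix of the array names (mmu-miR-362-3p) is left out below. The miR-502, miR-660 and miR-501-3p species were not analysed here. The names chose the members, but the cluster was singled out because miR-362-3p had the lowest ratio of EPO-MVs to MSC-MVs among the brighter entries, so the values of miR-362-3p and its neighbours are a description and not an independent test.

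The RNA came from microvesicles (MVs) in the supernatant of mesenchymal stem cells (MSCs), bone marrow cells of C57BL/6 mice that can form bone and fat. EPO-MVs were released by MSCs kept for 48 h in DMEM/F12 medium with serum and 100 IU/ml erythropoietin (EPO), the hormone that drives red cell formation, and MSC-MVs by MSCs kept in the same medium for 48 h without EPO. Serum was present in both cultures, and its own vesicles were not measured separately. Each condition had 1 array, so no ratio below has a replicate error, no test was possible, and an effect of EPO cannot be told apart from a difference between the arrays.

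A miRNA hairpin is cut from a longer transcript by Drosha and Dicer, and either of its arms, 5p or 3p, can be loaded into an Argonaute protein. The loaded strand recognises target mRNAs mainly through its seed, the bases 2 to 8 from its 5′ end. Hairpins in an intron usually share the transcription of their host gene. Clcn5 encodes ClC-5, a chloride/proton exchanger of endosomes that is needed for protein uptake in the renal proximal tubule and is mutated in Dent disease. In marrow stromal cells miR-188 has been described as a switch between bone and fat formation. The members were compared with each other on the same pair of arrays.

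The sequences are shown because the members include closely related copies, and the ratios below can be read against them. RefSeq tables of GRCm38.p6 held mature sequences for 8 of the 9 members. The exception was miR-532-5p. In each line the seed is in capitals and the sequence runs 5′ to 3′.
miR-362-3p: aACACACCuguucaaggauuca
miR-500-3p: aAUGCACCugggcaaggguuca
miR-362-5p: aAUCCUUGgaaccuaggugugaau
miR-500-5p: aAUCCUUGcuaucugggugcuuagu
miR-501-5p: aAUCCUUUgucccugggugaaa
miR-188-5p: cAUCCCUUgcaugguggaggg
miR-188-3p: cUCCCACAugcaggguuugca
miR-532-3p: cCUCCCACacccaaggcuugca

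The 5p arms of miR-362 and miR-500 had the same seed, and miR-501-5p differed from both of these in the seed by G8U alone, counted from the 5′ end. Over the whole strand, miR-362-5p matched miR-500-5p at 16 of 24 positions and miR-501-5p at 16 of 22. The 3p arms of miR-362 and miR-500 matched at 17 of 22 positions, with the substitutions C3U, A4G, U11G, U12G and A18G. The seed of miR-188-3p and that of miR-532-3p overlap when shifted by a base, and at that shift most of the later bases match as well. At equal positions, without the shift, these strands matched at 6 of 21, which understates how alike they are. How well the LNA probes of the array separate such related strands was not tested.

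In the genome the hairpins are on the minus strand, and in the direction of transcription they come in the order Mir532, Mir188, Mir362, Mir501 and Mir500. Mir532 occupies chrX:7248402-7248497 and Mir188 follows after 345 bp at chrX:7247989-7248056. After a gap of 5942 bp come Mir362 at chrX:7241982-7242046 and, 630 bp further, Mir501 at chrX:7241243-7241351. Mir500 lies another 3468 bp on, at chrX:7237683-7237774. The whole stretch is 10815 bp long and lies inside the annotated span of Clcn5, which is transcribed from the same strand. Of 2 annotated start sites of Clcn5, 1 lies before Mir532, by 70862 bp, and the other 1 lies past Mir500. Exon coordinates were not used here. The hairpins of miR-362 and of its relative miR-500, with the mature arms in capitals, are as follows.
Mir362: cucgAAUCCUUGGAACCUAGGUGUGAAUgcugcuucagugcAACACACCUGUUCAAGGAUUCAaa
Mir500: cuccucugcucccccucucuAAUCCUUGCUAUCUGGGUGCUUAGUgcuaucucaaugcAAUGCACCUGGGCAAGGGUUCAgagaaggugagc

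Values are normalized intensities on a linear scale. The smallest value of an array divided all its other values without remainder and is called a step, so that intensities before the authors' normalization can be given in steps. What a step equals in scanner units is not given in the sources used here, so limits in steps are relative to each array. A normalized intensity of 1 was 471 steps on the EPO-MV array and 447 steps on the MSC-MV array. The median entry had 97 and 87 steps on these arrays. The ratio is the normalized EPO-MV intensity over the normalized MSC-MV intensity, and an entry was counted as higher at a ratio of at least 1.5 and as lower at its inverse or less.

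Both arms of miR-362 and the dim miR-188-3p were lower in EPO-MVs by more than 1.5-fold, miR-532-3p was higher, and 4 of the other 5 members had ratios between 0.822 and 0.876. In all, 7 of the 9 members had a ratio below 1, against 43.9% of all entries. That number was 8 with re-centring on all entries, with quantile normalization and with lowess, which take miR-188-5p below 1, and the share of all entries below 1 then was 49.9%, 48.5% and 49.6%. At 1.5-fold 4 members passed in either direction, beside a background of 25.4% of all entries. Of these, 3 members were lower (miR-362-3p, miR-362-5p and miR-188-3p), and the background was 7.58% of all entries lower. A single member, miR-532-3p, was higher, and the background was 17.8% of all entries higher. The other 5 members stayed within 1.5-fold. The median log2 ratio of the members was -0.28, and that of all entries was 0.05. Since the cluster was chosen with these ratios known, the counts describe it and nothing is read from their distance to the background.

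**Figure D1:**
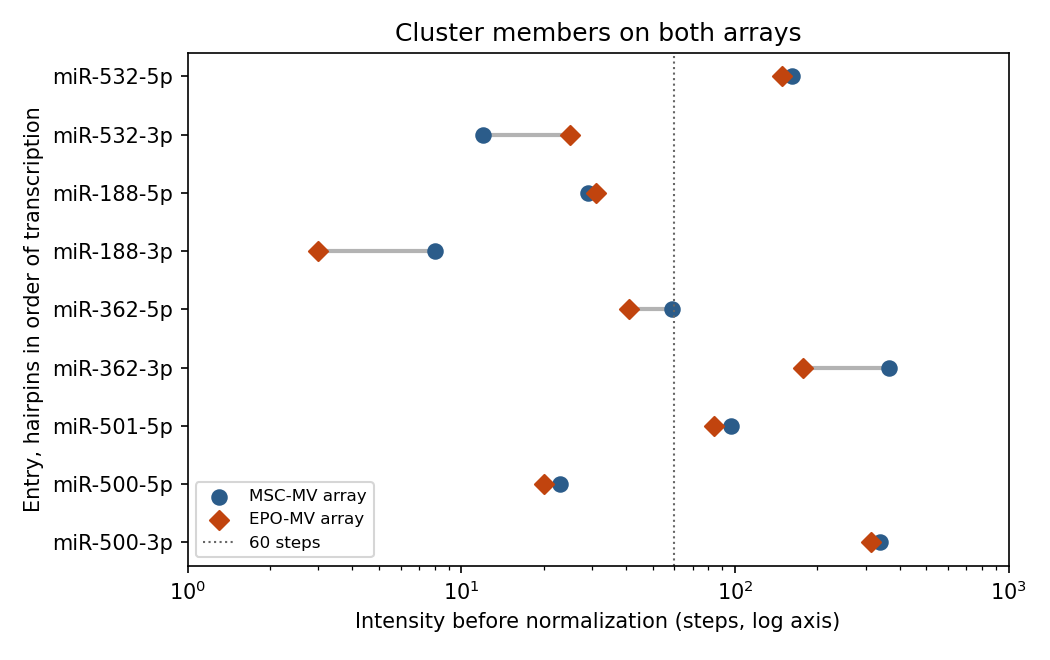
Intensity of each cluster member before normalization, in steps on a log axis, on the MSC-MV array (circles) and the EPO-MV array (diamonds), 1 array each; the dotted line marks 60 steps. The widest gaps belong to miR-188-3p (8 steps in MSC-MVs, 3 in EPO-MVs), miR-362-3p (367 and 177 steps, in the same order) and miR-532-3p (12 and 25 steps), and 4 of the 9 members have 60 steps or more on both arrays.

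The member with the most intensity behind its change was miR-362-3p. This miRNA has been described as repressing BCAR1, an adaptor protein of focal adhesions. Its normalized intensity was 0.821 in MSC-MVs (367 steps) and 0.376 in EPO-MVs (177 steps). The EPO-MV reading was thus the dimmer of the pair. The ratio was 0.458, a log2 ratio of -1.13. It ranked 348th of the 831 entries by intensity on the EPO-MV array and 243rd on the MSC-MV array. If each reading were off by 1 step in the opposite sense, the ratio would lie between 0.454 and 0.462, so the graininess of the deposited values is small against the change. The entries were divided into 4 classes of nearly equal size by mean log2 intensity, and in the class of miR-362-3p, the second brightest, 4.35% were lower by 1.5-fold and 5.31% were higher. Among entries with 60 steps or more on both arrays its ratio was the lowest, which is the value that chose it.

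The other arm of this hairpin, miR-362-5p, was also lower. This arm has been described as repressing CYLD, a deubiquitinase that restrains NF-κB. Its normalized intensity was 0.132 in MSC-MVs (59 steps) and 0.0870 in EPO-MVs (41 steps). The ratio was 0.660 (log2 ratio -0.60), just past the limit of 0.667. With each reading moved by 1 step in the opposite sense, it would lie between 0.633 and 0.687, so that the resolution of the values alone spans the limit. In its intensity class, the second dimmest, 3.37% of entries were lower and 18.8% were higher by 1.5-fold.

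The remaining members with 60 steps or more on both arrays came from 3 other hairpins and had ratios between 0.822 and 0.876. For miR-500-3p the normalized intensities were 0.761 in MSC-MVs and 0.667 in EPO-MVs (340 and 314 steps), a ratio of 0.876. For miR-532-5p, which has been described as repressing RUNX3, they were 0.362 and 0.316 (162 and 149 steps), a ratio of 0.873. For miR-501-5p they were 0.217 and 0.178 (97 and 84 steps), a ratio of 0.822. All 3 were dimmer in EPO-MVs, none of them by 1.5-fold, and of the 463 entries at 60 steps or more on both arrays 53.6% had a ratio below 1. With miR-362-3p, which was chosen for its low ratio, the log2 ratios of the 4 brighter members had a standard deviation of 0.45. Without it, those of the other 3 had one of 0.05. The log2 ratios of the 463 entries had a standard deviation of 0.34 with a median of -0.03. The log2 ratio of miR-362-3p was lower than the median of the other 3 brighter members by 0.93, a 1.91-fold difference between ratios. It was the single member of the 4 brighter ones to pass 1.5-fold, and of the 463 entries 5.4% were lower and 3.24% higher by that much.

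Among the dim members the ratios were scattered. The 2 arms of miR-188 had 3 and 8 steps (miR-188-3p) and 31 and 29 steps (miR-188-5p) on the EPO-MV and MSC-MV arrays. Their ratios were 0.356 and 1.01. The lowest ratio of the cluster, that of miR-188-3p, therefore rests on 5 steps, and shifts of 1 step in the opposite sense put it anywhere between 0.211 and 0.542.

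The opposite direction was seen for miR-532-3p. Its normalized intensity was 0.0268 in MSC-MVs (12 steps) and 0.0531 in EPO-MVs (25 steps), with a ratio of 1.98. Shifts of 1 step gave 1.75 to 2.24. It was the single member that was brighter in EPO-MVs by 1.5-fold with the deposited values. Its ratio was 1.53 with quantile normalization and with lowess, and with the pseudocount it was 1.31, within 1.5-fold. In the dimmest class of entries, which holds both miR-188-3p and miR-532-3p, 46.2% were higher and 14.9% were lower by 1.5-fold.

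The last of the dim members, miR-500-5p, had 23 steps in MSC-MVs and 20 steps in EPO-MVs. Its ratio was 0.825, which was the median ratio of the cluster. The 5 members under 60 steps on an array had log2 ratios with a standard deviation of 0.90 between members, and the 368 entries of this kind had one of 1.01.

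**Figure D2:**
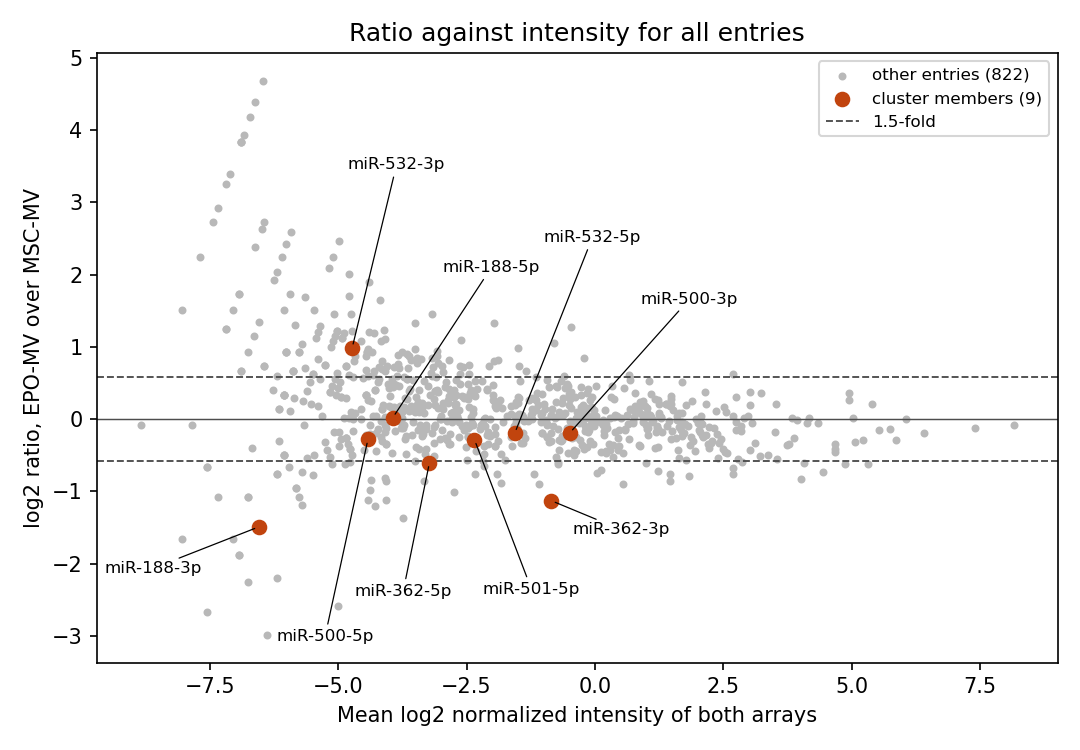
The log2 ratio of EPO-MV over MSC-MV against the mean log2 normalized intensity of both arrays for the 831 entries (gray) with the 9 cluster members marked; dashed lines mark 1.5-fold and each point is 1 entry on 1 pair of arrays. The points spread widely at low intensity, where miR-188-3p and miR-532-3p lie, and miR-362-3p lies at the lower edge of the narrower part of the cloud with a log2 ratio of -1.13.

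Along the cluster, high and low ratios lay next to each other. Mir532 and Mir188, which are 345 bp apart, held the highest ratio of the cluster (1.98, miR-532-3p) and the lowest (0.356, miR-188-3p), both from dim entries. Mir362 and Mir501 are 630 bp apart, and the log2 ratios were -0.60 and -1.13 for the arms of miR-362 and -0.28 for miR-501-5p. Mir500, the last hairpin, had log2 ratios of -0.28 and -0.19. Without the arms of miR-362, the median log2 ratio of the other 7 members was -0.20.

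**Figure D3:**
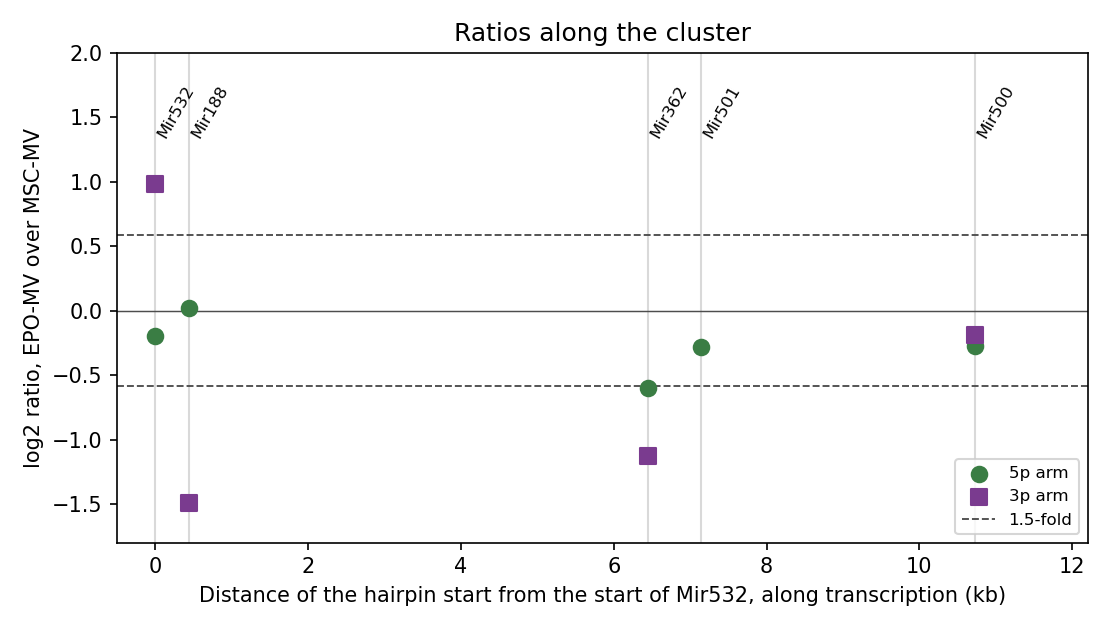
The log2 ratio of EPO-MV over MSC-MV for each member against the distance of its hairpin from the start of Mir532 in the direction of transcription, in kb; circles are 5p arms, squares are 3p arms and dashed lines mark 1.5-fold. The 5p arms lie between -0.60 and 0.02, and the 3p arms spread from -1.49 to 0.98.

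The arms of one hairpin come from the same precursor, and 4 hairpins of the cluster had an entry for both arms. For miR-500 the log2 ratios of the arms differed by 0.09. The difference was 0.53 for miR-362, 1.18 for miR-532 and 1.51 for miR-188. Both arms were below a ratio of 1 for miR-362 and miR-500, and the arms of miR-188 and miR-532 fell on opposite sides of it. For comparison, over all 223 hairpins with an entry for each arm the median size of the difference was 0.44, with quartiles of 0.19 and 0.86, and 55.2% had both arms on the same side of a ratio of 1. Where all 4 values of a hairpin had at least 30 steps, which held for 104 hairpins and in the cluster for miR-362, the median was 0.27 with an upper quartile of 0.45. The arms of miR-362 thus shared a direction, and the difference between them was above that quartile.

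**Figure D4:**
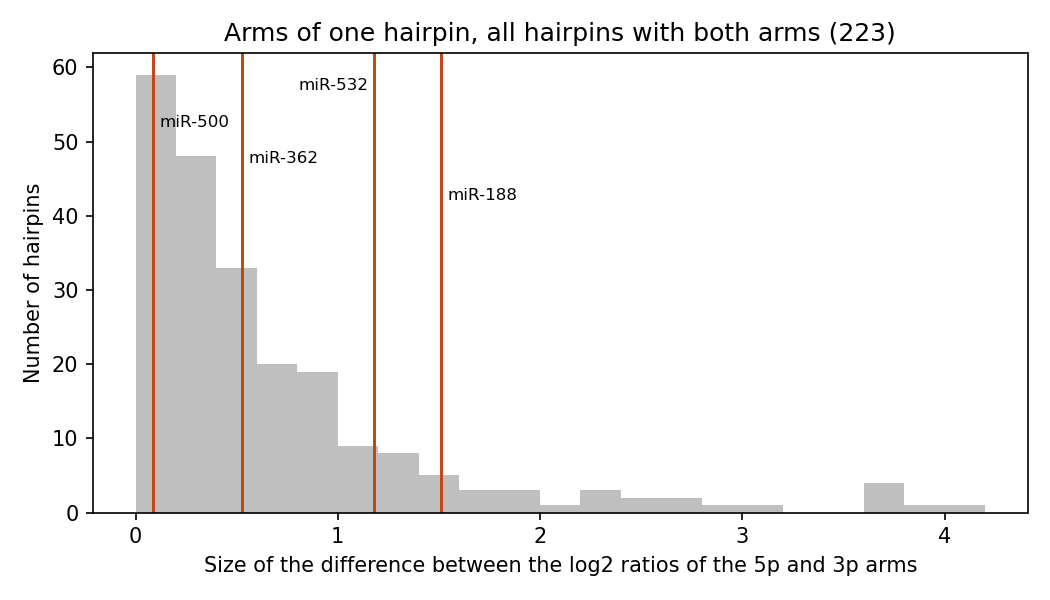
Number of hairpins by the size of the difference between the log2 ratios of their 5p and 3p arms, in bins of the log2 scale, for the 223 hairpins with both arms on the arrays; vertical lines mark the 4 hairpins of the cluster. The line of miR-500 (0.09) lies in the lowest bin, that of miR-362 (0.53) near the median of 0.44, and those of miR-532 (1.18) and miR-188 (1.51) lie above the upper quartile of 0.86.

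The ratios of strands with the same seed were set side by side. The same-seed pair within the cluster, miR-362-5p and miR-500-5p, had log2 ratios of -0.60 and -0.28, a 1.25-fold difference between their ratios. Outside the cluster 1 entry had the seed of a member among the 680 entries with a sequence in the RefSeq tables. This was miR-329-3p, which shares its seed with miR-362-3p and is encoded at chr12:109713541-109713562 on the plus strand of GRCm38.p6.
miR-329-3p: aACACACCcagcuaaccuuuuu

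It matched miR-362-3p at 12 of 22 positions. Its intensity was 265 steps in MSC-MVs and 299 steps in EPO-MVs, a ratio of 1.07, and thus on the other side of 1 from miR-362-3p. The ratios of this pair differed by 2.34-fold. The ratio of miR-500-3p, the member nearest to miR-362-3p in sequence among the 3p arms, differed from that of miR-362-3p by 1.91-fold.

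The entries above the median intensity whose ratios were nearest to that of miR-362-3p were miR-719, miR-365-3p and miR-28b. Likeness here is the distance between log2 ratios, over a single pair of arrays. They had 162 and 286 steps (miR-719, ratio 0.538), 504 and 887 steps (miR-365-3p, ratio 0.539) and 98 and 172 steps (miR-28b, ratio 0.541), each pair in the order EPO-MVs and MSC-MVs. The nearest of them was 0.23 away on the log2 scale, and no entry of that brighter part of the arrays had a lower ratio than miR-362-3p.

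A pair of other clusters was counted in the same way, each also a group of neighbouring hairpins. Whether the hairpins of a cluster came from 1 transcript in these cells was not tested. The cluster in an intron of Mcm7, a replication licensing gene, gives miR-106b, miR-93 and miR-25 and had 6 entries, of which 1 was higher, 1 was lower and 5 were below a ratio of 1. Over all entries these shares were 17.8%, 7.58% and 43.9%. Their median log2 ratio was -0.28, as in the Clcn5 cluster. Their log2 ratios had a standard deviation of 0.78, against 0.70 for the 9 Clcn5 members and 0.75 for all entries. The lowest of the 6 was miR-25-3p (232 and 338 steps, ratio 0.651) and the highest was miR-93-3p (6 and 2 steps, ratio 2.85). The 4 Mcm7 entries with 60 steps or more on both arrays had a median of -0.34 and a standard deviation of 0.22. For the 4 Clcn5 members at that filter, miR-362-3p among them, these were -0.24 and 0.45. The cluster of miR-322, miR-503, miR-351, miR-450 and miR-542, also on the X chromosome, had 10 entries, of which 1 was higher and 1 lower, with 3 below a ratio of 1. Its median log2 ratio was 0.15 with a standard deviation of 0.37. The lowest was miR-322-5p (234 and 336 steps, ratio 0.661) and the highest was miR-450a-2-3p (12 and 7 steps, ratio 1.63). Its 8 entries with 60 steps or more on both arrays had a median of 0.15 and a standard deviation of 0.36.

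The ratio of miR-362-3p stayed past 1.5-fold under the 6 alternatives that could move it, which were 5 scalings and the pseudocount. It lay between 0.442 and 0.493 under these. Scaling did decide the calls of members near the limit. For miR-362-5p the ratio rose to 0.678 with re-centring on the brighter entries, and for miR-500-5p it fell to 0.659 with lowess. The ratio of miR-188-5p, 1.01 with the deposited values, fell to 0.847 with lowess.

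**Figure D5:**
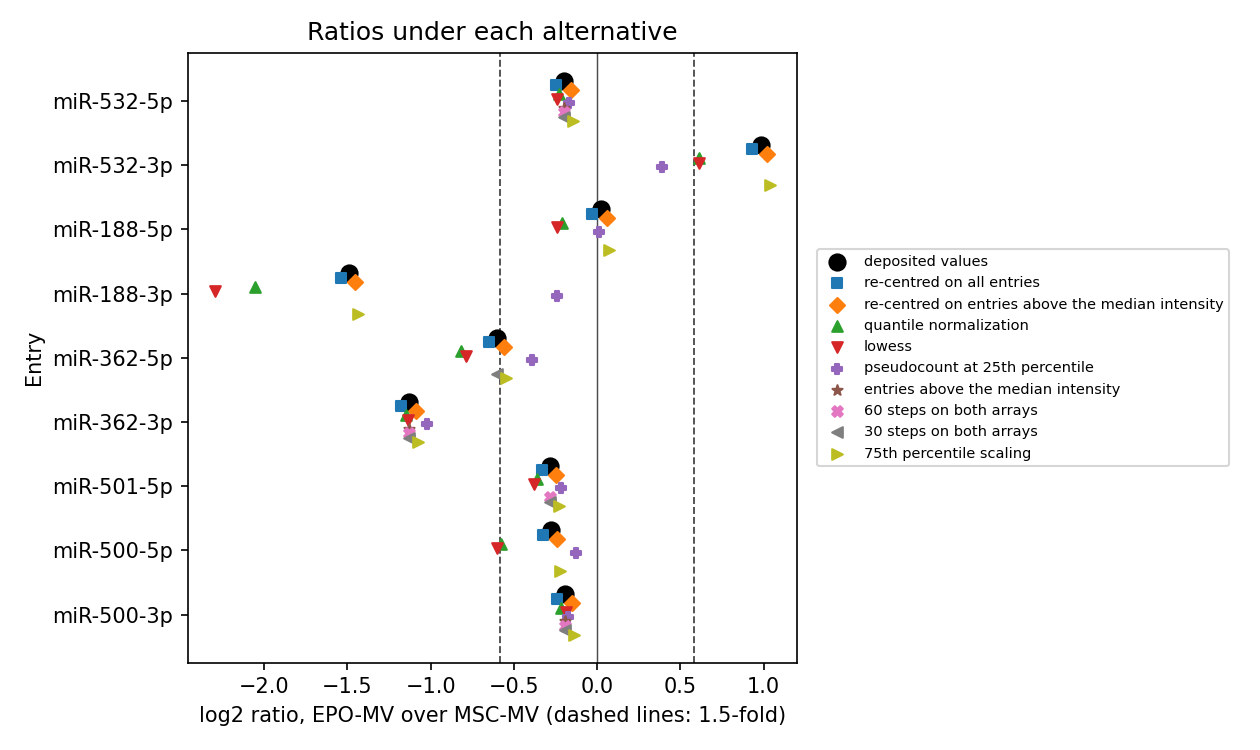
The log2 ratio of EPO-MV over MSC-MV of each cluster member with the deposited values (large black circles) and under each alternative scaling, pseudocount or filter (small symbols); dashed lines mark 1.5-fold. The symbols of miR-362-3p stay together beyond the lower line, whereas those of miR-188-3p and miR-532-3p are spread out, with the pseudocount nearest to 0.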

How the data were processed

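RNA of EPO-MVs (1 array) and MSC-MVs (1 array) was labelled (Hy3 per the labels, a Hy3/Hy5 kit per the methods) and hybridized to the miRCURY LNA Array (version 18.0). The authors deposited normalized intensities on a linear scale for 831 entries, after averaging replicate spots and median normalization with a factor from miRNAs whose intensity reached 30 in every sample. The channel read and any background correction are not given in the sources used here. The number of arrays limits the precision.

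EPO-MV intensity was divided by MSC-MV intensity for every entry without a pseudocount, and calls used 1.5-fold in either direction. A value was taken as a whole number of steps with a tolerance of 0.0001 of a step. The 4 intensity classes divide the entries by mean log2 intensity. Strands were compared without gaps from the 5′ end. Every entry of the named hairpins is reported, with hairpin partners, seed partners, the 3 entries nearest in ratio to miR-362-3p, and the extremes of the comparison clusters. Members and lists were chosen with earlier results of these data known. Of the other thresholds, scalings and filters tried, 9 were listed at the start and 2 (30 steps on both arrays, 75th percentile scaling) were chosen after seeing the data. Counting was tested on simulated data. Python 3.11.15, pandas 2.3.3, numpy 2.4.6 and statsmodels 0.14.6 were used.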

Additional observations from a re-analysis of the deposited data

How the results depend on the processing

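With the deposited values 1 member was higher, 3 were lower and the median log2 ratio was -0.28. No member passed 1.5-fold in the opposite direction under any alternative run. The number higher fell to 0 at 2-fold (8.06% of all entries higher), with the pseudocount (0.0573, the 25th percentile of all values; 3.49%), and among entries above the median intensity (3.13%), at 60 steps (3.24%) or at 30 steps on both arrays (5.93%), filters that kept 3, 4 and 5 members. The number lower was 5 at 1.2-fold (background 21.9%), and 1 with the pseudocount (3.01%), above the median intensity (6.02%) and at 60 steps (5.4%); in these last 3 it was miR-362-3p. The median log2 ratio moved to -0.38 with lowess and -0.18 with the pseudocount, which shrinks dim ratios by construction. With the pseudocount the ratios of miR-188-3p (0.847), miR-362-5p (0.763) and miR-532-3p (1.31) no longer passed 1.5-fold. Those of miR-362-5p also did not with re-centring on the brighter entries (0.678) and with 75th percentile scaling (0.684), and miR-500-5p newly passed with lowess (0.659). The cause of these moved calls was not tested. No paired analysis was possible because there was 1 array in each condition.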
